A study of Homo sapiens with 12 samples.

Results

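Regions of open chromatin called in ARPE-19, a line of retinal pigment epithelial cells, and not in H7, a line of embryonic stem cells, were examined where they crowd together. A region was ARPE-19-only if all 3 ARPE-19 lists had an ATAC-seq peak in it and 0 of the 3 H7 lists did. Each such region was placed by its start in a fixed 1 Mb window of the genome, and a window was called dense with 20 or more of them. On the autosomes, 1011 regions in 45 dense windows met this rule, out of 21378 ARPE-19-only regions and 81770 merged regions in all. The peak calls of all 6 libraries chose these regions, so their number and their absence from the H7 lists describe the choice and are not findings.

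ATAC-seq uses the Tn5 transposase to insert adapters into accessible DNA, and a peak is an interval with more insertions than the library's local background. The 3 ARPE-19 libraries came from a line that arose spontaneously from human retinal pigment epithelium, grown in DMEM with serum. The 3 H7 libraries came from human embryonic stem cells kept in mTeSR Plus, and each library was made from 500000 cells. Neither line carried a named edit or treatment in the labels, and the 6 samples of chromosome conformation capture in the series were not analysed here. Each line is a single cell line, and the labels do not say whether the libraries of a line came from separate cultures, so errors below measure only the spread between these libraries.

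The retinal pigment epithelium is the pigmented layer behind the photoreceptors, which it feeds, recycles visual pigment for and clears of shed membrane. In culture, ARPE-19 cells are known to lose much of the pigment and to take on a more spread, fibroblast-like shape. Open sites away from gene starts are often enhancers, short sequences bound by transcription factors, and enhancers of genes tied to a cell's identity are known to gather along the surrounding chromosome. Whether a given region here is an enhancer or a promoter was not analysed, since neither the sequence nor the gene models of the build hg19 were used. No sequence of a region is printed for the same reason.

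Autosomal lists held 38872 to 46942 peaks in ARPE-19 and 8295 to 14725 in H7. The genome-wide background of the peak caller, which scales with depth, was 0.425 to 0.483 reads per position in ARPE-19 and 0.592 to 0.653 in H7. At that background a called peak had at least 4 summit reads in ARPE-19 and at least 5 to 6 in H7. A region missing from the H7 lists was therefore below the calling limit in these libraries, which does not show that its chromatin was closed. The H7 lists were shorter although this background was higher in H7, and the reason was not tested.

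Dense windows were the upper end of a continuous range and not a class set apart. The 2704 windows with any merged region held a median of 7 ARPE-19-only regions and a mean of 7.91 ± 4.86 (SD over windows). Of these windows, 1.66% were dense, and 26.1% of all merged regions were called ARPE-19-only. Just inside the threshold lay 11 windows with exactly 20 regions, and just outside it 21 windows with exactly 19. The fullest window held 30, and 11 windows held 25 or more. In the histogram of regions per window the counts fall off smoothly through the threshold.

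**Figure D1:**
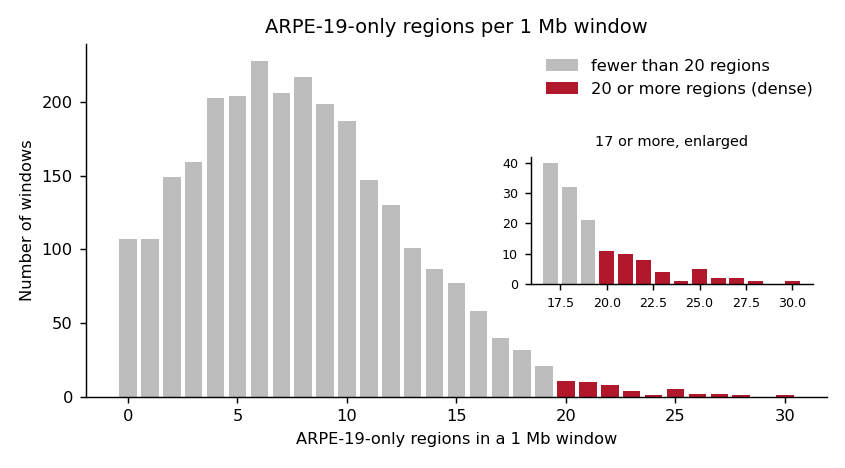
Number of 1 Mb windows (y axis) by the ARPE-19-only regions they hold (x axis), for the 2704 autosomal windows with any merged region. Grey bars are windows under 20 regions and red bars the 45 dense windows, with the range from 17 upwards enlarged in the inset; no gap separates the 11 windows with 20 regions from the 21 with 19.

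The choice of regions depended on where the windows begin. With the same windows moved by 0.5 Mb, 46 windows and 1002 regions met the rule, but 284 of the 1011 regions (28.1%) were among both sets. In 28 of the 45 windows no region was then kept, and in 17 at least 1 was. The chromosome 2 window from 192000001 to 193000000 kept all 27 of its regions and the one from 138000001 to 139000000 all 25. By contrast, the chromosome 5 window from 9000001 to 10000000, the second fullest, kept 0 of 28. Calls of the ARPE-19 libraries also set the count, with 114, 153 and 75 dense windows without replicate 1, 2 or 3. All 45 were among them each time, which largely follows from the rule. With 1 ARPE-19 library left out, a region needs calls in 2 libraries in place of 3. When every list was shortened to its 8295 strongest autosomal peaks, 0 windows were dense and the fullest held 11 regions.

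The dense windows lay on 16 of 22 autosomes. Chromosome 5 had the most, 7 of its 178 windows, which held 160 regions or 10.1% of its ARPE-19-only regions. Chromosome 2 had 5 dense windows, and chromosomes 1, 4 and 11 had 4 each. Chromosome 20, a short chromosome, had 3 among 61 windows (4.92%), the highest share of any autosome, while chromosome 3 had 1 among 196 (0.510%). None of the windows of chromosomes 15, 16, 17, 19, 21 and 22 was dense, and their median window held 3 to 6 ARPE-19-only regions. These counts over chromosomes were not tested, since windows of a genome are not replicates.

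Most dense windows stood alone. Of the 84 windows beside a dense one and not dense themselves, the median held 7 ARPE-19-only regions (range 0 to 19), the same as the median of 7 in the 2575 remaining windows. Windows with 10 or more made up 30.95% of the flanking windows and 33.2% of the remaining ones. A single pair of dense windows touched, on chromosome 5 from 172000001 to 174000000, with 25 and 21 regions. These 2 windows, with those of 23 regions from 167000001 to 168000000 and of 20 from 169000001 to 170000000, put 4 dense windows within 7 Mb of the long arm. Between them the windows starting at 170000001 and 171000001 held 1 and 4 regions, so the stretch was not filled evenly.

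Chromosomes 11 and 6 had stretches of another kind, singled out after their values were seen. On chromosome 11 every second window was dense, with 21, 24 and 22 regions in the windows starting at 126000001, 128000001 and 130000001. The windows between these 3 held 13 and 10 regions. On chromosome 6, the windows starting at 26000001, 27000001 and 28000001 held 21, 19 and 25, and the one before them held 16. The middle window fell outside the rule by 1 region, which shows how the threshold can divide a stretch.

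The rule fixes at least 20 peaks of each ARPE-19 library in a dense window and sets no number for H7. In each of the 45 windows the lowest ARPE-19 library had more peaks than the highest H7 library. The same held in all 21 windows with exactly 19 regions, and the ARPE-19 lists were longer throughout. This order therefore does not set dense windows apart, and its share over all windows was not computed. ARPE-19 libraries had a mean of 25 to 50 peaks in a dense window (median 34) and H7 libraries a mean of 1 to 13.3 (median 4.67). The spread between libraries of a line was small in most windows, with a median SD of 2.65 peaks in ARPE-19 and 1.73 in H7. The plot of peaks by window shows that H7 was seldom empty: no dense window lacked an H7 peak in all 3 libraries.

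**Figure D2:**
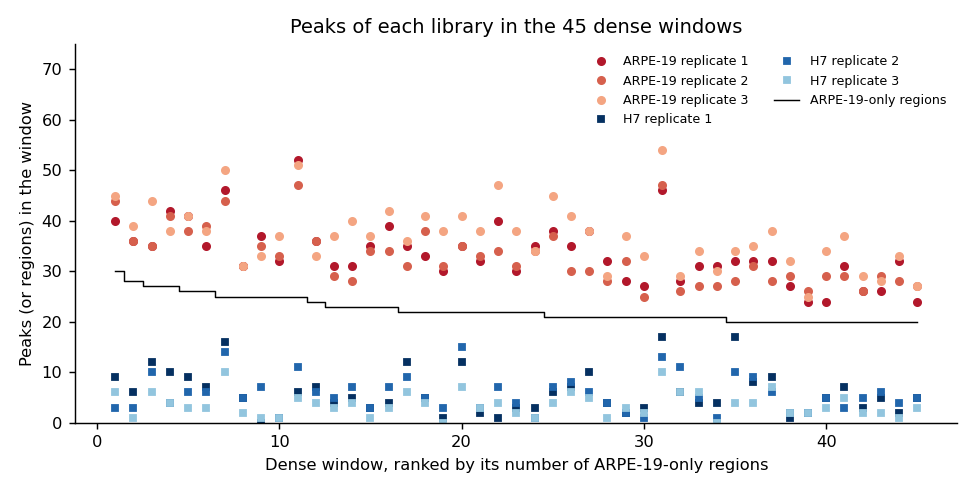
Peaks of each of the 6 libraries (y axis) in the 45 dense windows, ordered by their number of ARPE-19-only regions (x axis). Red points are ARPE-19 libraries, blue squares H7 libraries and the black line the ARPE-19-only regions; the ARPE-19 points lie at 24 to 54 peaks and the H7 squares at 0 to 17.

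The fullest window was on chromosome 3 from 177000001 to 178000000, with 30 regions. ARPE-19 replicates 1, 2 and 3 had 40, 44 and 45 peaks there, and H7 replicates 1, 2 and 3 had 9, 3 and 6. The window also held 3 H7-only regions, the reverse class. The chromosome 5 window from 9000001 to 10000000 followed with 28 regions. It had 36, 36 and 39 ARPE-19 peaks against 6, 3 and 1 in H7, and no H7-only region. Background knowledge places SEMA5A, a semaphorin that guides growing axons, in this part of the short arm.

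The chromosome 2 window from 192000001 to 193000000 had 27 regions, with 35, 35 and 44 ARPE-19 peaks and 12, 10 and 6 H7 peaks. This was a window in which H7 was open too: 20 of its 62 merged regions had an H7 peak, and 2 were H7-only. The chromosome 9 window from 75000001 to 76000000 also had 27, with 42, 41 and 38 ARPE-19 peaks and 10, 4 and 4 in H7. On chromosome 1, the window from 90000001 to 91000000 had 26 regions, with 41, 38 and 41 peaks against 9, 6 and 3. Another 26 lay on chromosome 12 from 13000001 to 14000000, with 35, 39 and 38 peaks against 7, 6 and 3. In these 4 windows the ARPE-19 libraries differed from each other by at most 9 peaks.

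Windows with 25 regions differed in what H7 did. The chromosome 1 window from 85000001 to 86000000 had 46, 44 and 50 ARPE-19 peaks and 16, 14 and 10 H7 peaks, and 5 of its regions were called in all 6 libraries, more than in any other dense window. The chromosome 5 window from 172000001 to 173000000 was its opposite, with 32, 33 and 37 ARPE-19 peaks against 1, 1 and 1 in H7. The window on chromosome 4 from 11000001 to 12000000 had 37, 35 and 33 against 0, 7 and 1, so that there the H7 libraries differed among themselves. The chromosome 2 window from 138000001 to 139000000 had 31 peaks in each ARPE-19 library and 5, 5 and 2 in H7. An eleventh window, on chromosome 6 from 28000001 to 29000000, tied with these and had 52, 47 and 51 ARPE-19 peaks and 6, 11 and 5 H7 peaks.

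**Figure D3:**
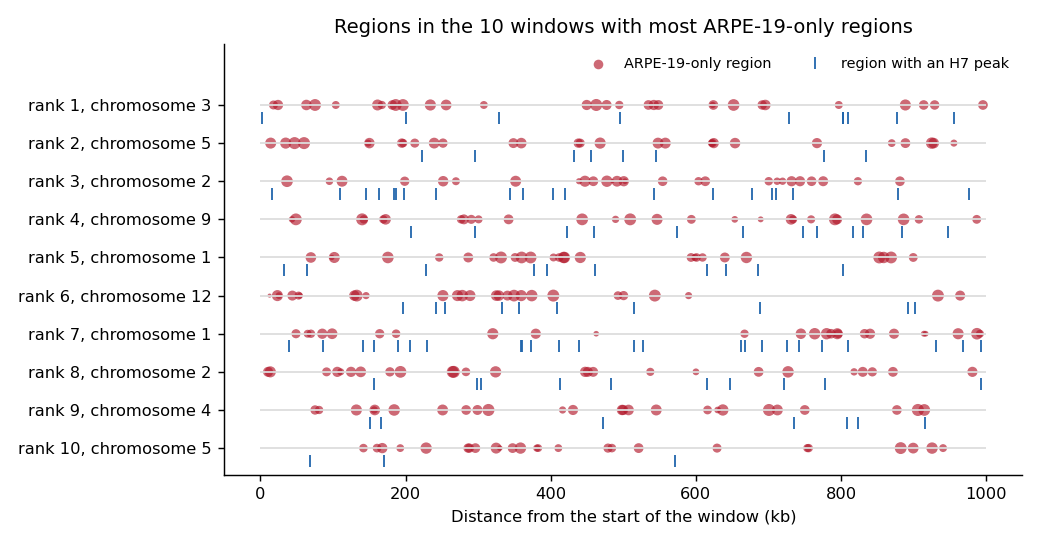
Positions of ARPE-19-only regions (red points, whose area grows with the mean within-library percentile of strength) and of regions with a peak in any H7 library (blue ticks below) in the 10 fullest windows, by distance from the window's start in kb (x axis). Regions are spread over most of each window and bunch in places, and the window of rank 10 has 3 regions with an H7 peak.

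Some of these windows are known from the hg19 map of genes to hold well-studied loci. This is background from general knowledge and not a result, and no region was assigned to a gene. The chromosome 2 window starting at 192000001 is known for CAVIN2, a protein of caveolae. The one on chromosome 9 is known for ANXA1, a membrane-binding annexin, and the one on chromosome 12 from 13000001 for EMP1, an epithelial membrane protein. The chromosome 5 window starting at 172000001 holds DUSP1, a phosphatase that switches off MAP kinases. Of the other dense windows, that on chromosome 7 from 55000001 to 56000000 holds EGFR, the receptor of epidermal growth factor, and that on chromosome 5 from 52000001 to 53000000 holds ITGA1 and ITGA2, the alpha chains of collagen-binding integrins. The chromosome 11 window starting at 128000001 holds the neighbouring ETS-family factors ETS1 and FLI1, the chromosome 20 window from 6000001 to 7000000 holds the growth factor gene BMP2, and the chromosome 6 window from 21000001 to 22000000 holds the transcription factor gene SOX4. The chromosome 6 window starting at 26000001 holds part of the largest cluster of replication-dependent histone genes.

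The EGFR window, with 23 regions, had 35, 34 and 37 ARPE-19 peaks and 3, 3 and 1 H7 peaks. The ITGA1 and ITGA2 window had 22 regions, with 33, 38 and 41 peaks against 5, 5 and 4, and 2 regions called in all 6 libraries. In the ETS1 and FLI1 window, 24 regions came with 36, 36 and 33 peaks against 7, 6 and 4. Such low H7 counts were not particular to these 3 windows, since H7 libraries had a mean of 5.13 peaks per dense window and 4.44 per other window. The histone gene window had more H7 peaks, with 46, 47 and 54 peaks in ARPE-19 and 17, 13 and 10 in H7. It had 21 ARPE-19-only regions and 28 regions with an H7 peak, more than any other dense window, and shared the highest mean of H7 peaks, 13.3, with the chromosome 1 window starting at 85000001. The BMP2 window had 20 regions, with 24, 27 and 27 peaks against 5, 5 and 3, and the SOX4 window had 21, with 27, 25 and 33 against 3, 1 and 2.

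Strength was described by the reads at the summit of a peak, recovered from the deposited fold and -log10 p, and by the percentile of its -log10 q among the peaks of its library. The strongest of the 1011 regions lay on chromosome 5 from 167126252 to 167126977. It had 82, 74 and 85 summit reads in ARPE-19 replicates 1, 2 and 3 and an authors' fold enrichment of 19.99, 19.8 and 20.1, so the 3 libraries lay close together. The next lay on chromosome 20 from 39957938 to 39958565, with 54, 55 and 73 reads at its summit. The third strongest was on chromosome 11 from 130036305 to 130036676, where the summits had 56, 43 and 62 reads. A pair on chromosome 4 completed the 5 strongest, from 160576657 to 160577087 with 58, 46 and 45 summit reads and from 11905691 to 11906217 with 62, 51 and 47. None of the windows of the first 4 was among the 10 fullest. The region from 160576657 was 107049 bases from the nearest ARPE-19-only region, so a strong region could stand apart within a dense window.

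The strongest region of each of the 5 fullest windows had a mean percentile of 92.6 to 98.9 over the ARPE-19 libraries. Elsewhere 12.7% of ARPE-19-only regions were above the 90th percentile, so windows with 26 to 30 regions would often hold such a region. In the chromosome 3 window the strongest region lay from 177462613 to 177463028, with 39, 49 and 51 summit reads and with summits within 6 bases of each other. In the chromosome 5 window from 9000001 it lay from 9046824 to 9047456, with 56, 39 and 45. The leading region of the chromosome 2 window from 192000001 was weaker, with 30, 20 and 37 summit reads from 192036408 to 192037066, and the 3 libraries put its summit on the same base. On chromosome 9 the leading region had 36, 34 and 46 reads from 75140002 to 75140488, and on chromosome 1 it had 40, 32 and 37 from 90852431 to 90853020. Libraries ranked these regions in different orders, and no library was the highest at all 5.

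The weakest regions were close to the limit of calling. The lowest mean percentile belonged to a region on chromosome 6 from 28715525 to 28715811, with 4, 5 and 6 summit reads. A region on chromosome 10 from 114715949 to 114716395 had 8, 7 and 7, and one on chromosome 5 from 169264795 to 169265288 had 6, 6 and 6. Counting error alone is large at such values, and reads may include duplicates. Over all 1011 regions the mean percentile ran from 9.19 to 99.9 with a median of 66.3, and 136 regions (13.5%) were above the 90th percentile. ARPE-19-only regions elsewhere were similar, with a median of 64.7 and 2596 (12.7%) above the 90th percentile. Summit reads of the 1011 regions correlated between libraries (Pearson's r of log2 reads 0.793, 0.809 and 0.799 over the 3 pairs of libraries), a description across regions called in the same libraries.

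Merged regions were 174 to 1129 bases wide, with a median of 419. The widest lay on chromosome 1 from 85779616 to 85780744, where ARPE-19 replicate 3 had a peak of 1129 bases and the strongest peaks of replicates 1 and 2 had 389 and 327. Its width thus came from 1 library. The next widest, on chromosome 11 from 130767174 to 130768267, was broad in each library, with 848, 916 and 1022 bases. Another, on chromosome 4 from 11283021 to 11284088, had 1068, 544 and 291 bases. Together the members of a window covered 7.70 to 14.3 kb, so that even a dense window was mostly free of them.

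Within the windows, most regions stood singly or in pairs and a minority in groups of 3 or more. The median distance from a region to the nearest ARPE-19-only region was 11.4 kb, against 26.3 kb for the 20367 ARPE-19-only regions elsewhere, a difference that the density itself brings with it. Of the 1011 regions, 45.7% had a neighbour within 10 kb and 90.1% within 50 kb, against 25.6% and 68.8% elsewhere. When neighbours in a window were linked across gaps of at most 10 kb, 160 regions (15.8%) fell into 49 groups of 3 or more, and 32 of 45 windows had such a group. Elsewhere 6.02% of regions fell into such groups. The largest group in a dense window had 5 regions and the largest elsewhere 8, so long groups were not particular to dense windows.

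Groups of 5 lay on chromosome 5 from 167060857 to 167084411, a span of 23.6 kb, and on chromosome 2 from 192477197 to 192502742, a span of 25.5 kb, in the window that kept all its regions when the windows were moved. Groups of 4 lay in 7 windows, among them that of ETS1 and FLI1, from 128318423 to 128337870, and the chromosome 1 window starting at 90000001, which had 2 of them. The latter window and the chromosome 5 window starting at 167000001 were the most grouped, each with 11 regions in 3 groups. Regions could also crowd on one side, as in the chromosome 12 window with 9 and 12 of its 26 regions in its first and second 250 kb. The closest pair, on chromosome 1 from 178577612 to 178578123 and from 178578160 to 178578468, was 36 bases apart and was merged as 2 regions because no peak of any library bridged them. At the other end, 13 windows had no group of 3, among them the BMP2 window. Gaps without an ARPE-19-only region reached 437 kb inside a dense window, on chromosome 5 between 167000001 and 168000000.

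Regions in dense windows differed little in strength and width from ARPE-19-only regions elsewhere. Their median percentile was 68.5, 65.5 and 71.7 in ARPE-19 replicates 1, 2 and 3, against 67.3, 64.2 and 69.8 elsewhere. The difference was 1.45 ± 0.39 percentile points (SD, n = 3 libraries, exact sign-flip permutation test, two-sided p = 0.25). With 3 libraries 0.25 is the smallest p this test can give, so no such difference can pass a threshold of 0.05. The difference turned to -1.28 with a -log10 q of at least 5 and ranged from 1.22 to 3.35 without 1 library, the highest without ARPE-19 replicate 2. The regions elsewhere include those of sparse windows. In windows of 15 to 19 regions the medians were 69.1, 67.0 and 72.4, so dense windows were lower than these in each library. Median summit reads were 15, 13 and 16 in dense windows and 14, 13 and 15 elsewhere. The cumulative curves of summit reads show the same small shift in all 3 libraries.

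**Figure D4:**
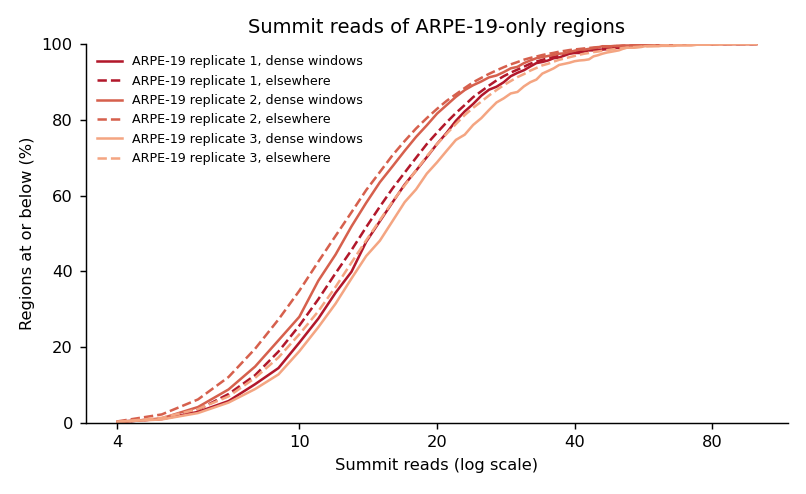
Share of ARPE-19-only regions (y axis, %) with at most a given number of summit reads (x axis, log scale), for the 1011 regions in dense windows (solid) and the 20367 elsewhere (dashed) in each ARPE-19 library. Solid and dashed curves of a library run close together, with medians of 15, 13 and 16 against 14, 13 and 15 reads in replicates 1, 2 and 3.

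Median peak width was 314, 299 and 336 bases in dense windows and 319, 300 and 336 elsewhere, a difference of -2.00 ± 2.65 bases (SD, n = 3, exact sign-flip permutation p = 0.5). Its sign changed without any 1 of the ARPE-19 libraries, with values up to 10.0, and without H7 replicate 1 or 3. Summits of the 3 libraries were also placed alike. The median distance between the outermost summits of a region was 67 bases in both sets, and 74.0% of regions in dense windows had them within 100 bases, against 71.6% elsewhere. A library had more than 1 peak in 1.58% of the regions in dense windows and in 1.81% of those elsewhere.

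The local background of these regions was also somewhat higher than elsewhere. Its median was 2.15, 1.95 and 2.32 times the genome-wide background of the library in ARPE-19 replicates 1, 2 and 3, against 1.94, 1.76 and 2.06 elsewhere. The difference was 0.22 ± 0.041 (SD, n = 3, exact sign-flip permutation p = 0.25) and was positive in 3 of 3 libraries. Windows of 15 to 19 regions came close to the dense ones, with 2.13, 1.92 and 2.23 times the genome-wide background. Of the 1011 regions, 76 (7.52%) had a background over 5 times the genome-wide one in at least 1 library, against 4.09% elsewhere. Reads of a peak and of its neighbours can enter its local background, whose part in the density was not tested. With peaks above that limit left out before merging, 30 windows were dense, all among the 45, with 658 regions.

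Strength was also compared over classes of window that lead up to the dense ones. Over windows with 1 to 4, 5 to 9, 10 to 14, 15 to 19 and 20 or more ARPE-19-only regions, the median percentile of these regions averaged 59.8, 65.2, 69.1, 69.5 and 68.6 over the libraries. It rose over the sparse windows and was level from 10 regions on. Over the same classes the ARPE-19 libraries had 9.01 ± 1.39, 14.7 ± 1.41, 21.1 ± 1.68, 27.9 ± 2.10 and 34.5 ± 2.35 peaks per window (SD, n = 3), an increase that the classes themselves bring about. H7 libraries had 3.45 ± 0.89, 4.60 ± 1.33, 5.16 ± 1.43, 5.49 ± 1.43 and 5.13 ± 1.33 (SD, n = 3). A region that has an H7 peak leaves the count by which windows are classed, so the rule bears on the H7 values too. From windows of 5 to 9 regions on, the H7 means differed by less than the spread between libraries, whose lists differ in length. Within each H7 library, peaks per window rose up to windows of 15 to 19 regions and were lower in dense ones. These steps were not tested.

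**Figure D5:**
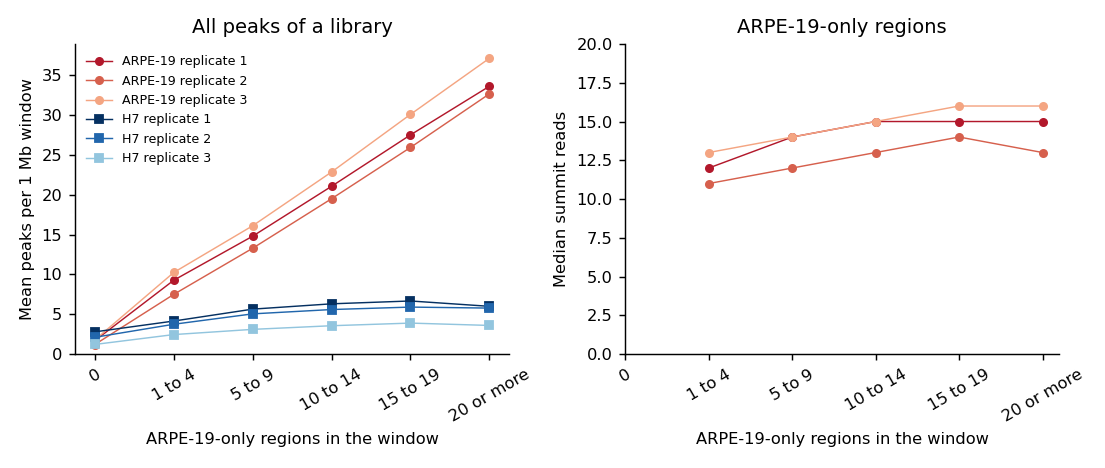
Left, mean peaks of each library per 1 Mb window (y axis) by the number of ARPE-19-only regions in the window (x axis); right, median summit reads of ARPE-19-only regions over the same classes. ARPE-19 (red) climbs to 32.7 to 37.1 peaks per dense window, where H7 (blue) has 3.6 to 6, and summit reads are level from 10 regions on.

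A dense window had 2.22 ± 0.091 times as many peaks of an ARPE-19 library as other windows did, and 1.16 ± 0.048 times as many peaks of an H7 library (SD, n = 3 each). In shares, 3.62% ± 0.14 of ARPE-19 peaks and 1.92% ± 0.078 of H7 peaks lay in the dense windows, which are 1.66% of all windows. The rule used these same calls, so this difference was not tested. Each H7 library had slightly more peaks in dense windows than in all other windows, at 1.10, 1.19 and 1.18 times. The other windows include sparse ones: those of 1 to 4 ARPE-19-only regions had a mean of 3.45 H7 peaks. Against windows of 15 to 19 such regions, each H7 library had fewer peaks in dense windows, with a mean of 5.13 against 5.49. That difference was smaller than the spread between libraries, whose lists differ in length, and was not tested. The rule bears on it too, since a region with an H7 peak leaves the count.

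The dense windows also held regions of every other class. Of their 2401 merged regions, 42.1% were ARPE-19-only, 303 (12.6%) had a peak in 2 ARPE-19 libraries and no H7 library, and 598 (24.9%) in 1 ARPE-19 library alone. Elsewhere the last 2 classes made up 13.9% and 29.6%. Regions with a peak in any H7 library made up 20.4%, against 30.9% elsewhere and 30.5% over the genome. Per window they were more numerous, at 10.9 against 9.21 elsewhere, where sparse windows are included. H7-only regions numbered 29, which is 1.21% of merged regions against 1.8% over the genome, and 28 of 45 windows had none. Per window they numbered 0.644, against 0.542 elsewhere. Regions of all 6 libraries numbered 15, which is 0.625% against 1.83% over the genome, and 36 windows had none. Per window these numbered 0.333, against 0.557 elsewhere and 0.789 in windows of 15 to 19 ARPE-19-only regions. Both classes averaged below 1 per window elsewhere too. The share of other windows with none was not computed, so the counts of windows with none have no baseline. Among regions open in every ARPE-19 library, an H7 peak was found at 8.75% in dense windows (97 of 1108, exact 95% binomial interval 7.16% to 10.6%) and at 17.7% elsewhere. Windows of 1 to 4, 5 to 9, 10 to 14 and 15 to 19 ARPE-19-only regions had 32.3%, 18.7%, 14.7% and 12.8%. The share thus fell over the whole range and not only in dense windows. Regions with an H7 peak do not count towards density, so the rule favours windows with a low share. The interval covers counting error only and treats neighbouring regions as independent.

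Each library was also described in windows chosen without it. Dense windows were chosen from 2 ARPE-19 and 3 H7 libraries, and the ARPE-19 library left out was then examined. Replicates 1, 2 and 3 had 8.17%, 11.3% and 5.70% of their peaks in windows that made up 4.23%, 5.66% and 2.78% of all windows, a ratio of 1.94, 2.00 and 2.05. When an H7 library was left out instead, H7 replicates 1, 2 and 3 had 1.16, 1.33 and 1.33 times the share of windows. No p is given for the difference between the 2 lines, because the windows were still chosen by the other libraries for being open in ARPE-19 and not in H7, and because the 6 choices share libraries. That each ARPE-19 library exceeded the windows' share largely follows from the choice and is not a finding. The windows were chosen for many regions called in the other 2 libraries of the line. Even in other windows, replicates 1, 2 and 3 when left out had peaks in 84.7%, 79.7% and 90.4% of such regions.

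Single regions were found again at similar rates in dense windows and elsewhere. Of the regions in windows chosen without ARPE-19 replicate 1, 2 or 3, 85.8%, 82.8% and 92.4% had a peak in the left-out library, against 84.7%, 79.7% and 90.4% of the ARPE-19-only regions in other windows. The difference was 2.05 ± 1.02 percentage points (SD, n = 3, exact sign-flip permutation p = 0.25) and was positive for 3 of 3 libraries. In the left-out H7 replicates 1, 2 and 3, 3.06%, 3.11% and 1.86% of such regions had a peak, against 3.19%, 3.18% and 1.83% elsewhere, a difference of -0.060 ± 0.080 points (SD, n = 3, exact sign-flip permutation p = 0.5). For H7 the difference was smaller than the spread between libraries. The choices share libraries, so the 3 differences of a line are not independent, and both sign-flip p values are descriptive only.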

How the data were processed

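ATAC-seq peak lists of 3 ARPE-19 and 3 H7 libraries were used, 1 list per library. The submitters' processing notes name MACS2, bedtools and the build hg19; versions, aligner, duplicate handling and any transposase shift are not given in the sources used here. Unshifted reads would move summits by a few bases. The deposited columns hold a score, a fold enrichment (a ratio to the local background), and -log10 p and -log10 q per peak, all set by the authors within a library and used here as such. Positions are 1-based on hg19.

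Autosomal peaks overlapping by at least 1 base were merged. Where a library had several peaks in a region, the one with the highest -log10 q gave its values. Summit reads and local background were solved from fold and -log10 p as MACS2 defines them, within 0.001 of the deposited -log10 p for at least 99.988% of peaks of each list. The most frequent background was taken as genome-wide. The steps were tested on simulated data: 100% of 20 planted dense windows and 100% of 5000 simulated read counts were recovered, the first by construction.

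Library medians were compared by exact permutation or sign-flip tests. Named windows are the 10 fullest and adjacent dense ones; named regions are the strongest of the 5 fullest windows, the 5 strongest, 3 weakest and 3 widest of all, and the closest pair. Windows beyond these were chosen after their values were seen. The regions, lists and rules were chosen with earlier results of these data known. Planned results on sequence motifs, genes in the windows and cell type markers were not run, since hg19 sequence and gene models were not used here, so the line labels were not checked against marker genes. Alternatives are described in the closing section. Software was matplotlib 3.10.9, scipy 1.17.1, pandas 2.3.3, numpy 2.4.6 and Python 3.11.15.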

Additional observations from a re-analysis of the deposited data

Results flagged for a closer look

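All peaks of a library, of whatever class, were ranked by -log10 q, and the median percentile inside dense windows was set against that outside. ARPE-19 peaks stood higher inside, by 9.68, 7.71 and 7.39 percentile points in replicates 1, 2 and 3, and H7 peaks stood lower, by -1.88, -6.04 and -9.84. Every ARPE-19 library thus moved one way and every H7 library the other, 14.2 points apart on average. The difference was not tested, and the rule bears on it, because it selects windows by regions open in every ARPE-19 library, whose peaks there stood at a median percentile of 65.5 to 71.7, and leaves regions shared with H7 out of the count.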

How the results depend on the processing

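The values printed here are, in this order where given, dense windows, their ARPE-19-only regions, the percentage of ARPE-19-only regions that these are, the difference in percentile and in width (bases) from ARPE-19-only regions elsewhere, the percentage points by which ARPE-19 exceeded H7 in the share of peaks in dense windows, and the percentage of merged regions there with an H7 peak. With all peaks they were 45, 1011, 4.73%, 1.45, -2.00, 1.70 and 20.4%. A -log10 q of at least 5 gave 9, 199, 1.24%, -1.28, 5.67, 0.515 and 9.47%, and a difference in summit reads of 0 in place of 0.667. Lists cut to 8295 peaks each gave 0, 0 and 0%, with no further value. A call that needs peaks over 50% of a merged region gave 12, 254, 1.48%, 2.55, 20.5 and 0.474, and 1.67 summit reads. A peak in at least 2 of 3 ARPE-19 libraries gave 366, 8590, 26.2%, 3.30, 10.0, 7.64 and 23.3%. Windows shifted by 0.5 Mb gave 2.73 and 5.17 for percentile and width, then 1.399 and 22.4%. Thresholds of 15 and 25 regions gave 273, 4749 and 22.2%, and 11, 289 and 1.35%. Windows of 0.5 Mb with 10 or more gave 321, 3714 and 17.4%, and windows of 2 Mb with 40 or more gave 4, 169 and 0.791%. The percentile difference was 0.34 by fold enrichment and 0.95 without peaks of high local background. Leaving such peaks out before merging, chosen after seeing the data, gave 658 regions, 3.21%, 0.44, -5.50, 1.01 and 22.4%. Without 1 library each, there were 53 to 153 windows, 1185 to 3448 regions, 5.44% to 12.9%, 1.22 to 3.35, -3.17 to 10.0, 1.92 to 4.19 and 15.7% to 24.7%, the most windows without ARPE-19 replicate 2. Fewer or more libraries, peaks or bases change the count by construction, and beyond that the cause was not tested. The median distance to the nearest ARPE-19-only region stayed within 1.5 times in the 11 settings that gave one. As a replicate block, same-numbered libraries gave the same difference in share, 1.70 ± 0.098 (SD, n = 3 pairs, exact sign-flip permutation p = 0.25). Deviations of same-numbered libraries over windows correlated at -0.010, -0.052 and 0.105, and those of other pairs at -0.142 to 0.142. These values cannot show whether same-numbered libraries shared a batch, and the labels give only a replicate number.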

Other observations

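Counted around each region in place of fixed windows (within 0.5 Mb on either side, a setting chosen after seeing the data), 587 of the 1011 regions (58.1%) had 20 or more ARPE-19-only regions, themselves included, and the count ran from 5 to 35. Outside the dense windows another 474 regions had 20 or more, 2.33% of those elsewhere, with a highest count of 33.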
